A study of Rattus norvegicus with 12 samples.

Results

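AMP-activated protein kinase (AMPK) is a complex of a catalytic alpha, a scaffold beta and a regulatory gamma subunit. The 5 subunit genes taken as members were Prkaa1 (alpha 1), Prkaa2 (alpha 2), Prkab1 (beta 1), Prkab2 (beta 2) and Prkag1 (gamma 1). The Affymetrix RAE 230A array carries probe sets that name each of them alone. All 6 such probe sets of these members were taken, whatever their brightness, of 15866 on the array (5 of 10411 genes named). The gamma gene Prkag2 also has such a probe set but is not a member, and it is given beside Prkag1. Prkaa1 has 2 probe sets, and the other subunits have 1 each.

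Each array measured whole lung RNA of 1 male Wistar rat aged 12 weeks, with no pooling. The 7 diabetic rats had been given streptozotocin at 8 weeks of age, 4 weeks before the lungs were taken, and the 5 normal rats had been given buffer alone. Streptozotocin is toxic to pancreatic beta cells, the source of insulin, and the toxin itself and the diabetes that follows it cannot be told apart in these groups. All 12 rats had been fasted overnight. The surfactant protein genes Sftpa1, Sftpb, Sftpc and Sftpd had mean signals of 10469 to 25682 in the groups, and 4 of 4 adipocyte and 4 of 6 liver markers on the array were among its dim probe sets, so the marker levels match the labelled tissue. The signals are brightness values on a linear scale, and they were compared on a log2 scale.

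AMPK is switched on when AMP and ADP rise relative to ATP. The gamma subunit binds these nucleotides, the upstream kinase LKB1 (gene Stk11) or CaMKK2 phosphorylates the alpha subunit, and the beta subunit holds the complex together and binds glycogen. The active kinase turns down fatty acid, protein and glycogen synthesis and turns up fatty acid oxidation, glucose uptake and autophagy, mostly by phosphorylating proteins. In lung epithelium it is known for its control of sodium transport and of the cystic fibrosis chloride channel, and in fasting for the shift from glucose to fat. Transcript levels as measured here say nothing of its phosphorylation or activity.

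None of the 6 probe sets differed between normal and diabetic lung at an adjusted p under 0.05. Both probe sets of the catalytic subunit gene Prkaa1 were brighter on average in diabetic lung, by 0.20 and 0.56 on the log2 scale. Prkaa2, the other catalytic subunit gene, had almost the same mean in both groups. The scaffold genes Prkab1 and Prkab2 and the gamma gene Prkag1 had lower means in diabetic lung, by 0.16, 0.36 and 0.12 on the log2 scale, with overlapping groups and adjusted p of 0.333, 0.454 and 0.541 in limma. In limma the probe sets above a cut on brightness (a mean signal of 170.0, which left out the dimmest 40%) were tested together, and the dimmer probe set of Prkaa1 and that of Prkab2, which lay below it, were read from a second fit over all 15866 probe sets. Of the members, 4 were in the first fit, where 0.168% of the 9520 probe sets reached an adjusted p under 0.05. In the second fit the share was 0.0441%.

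**Figure D1:**
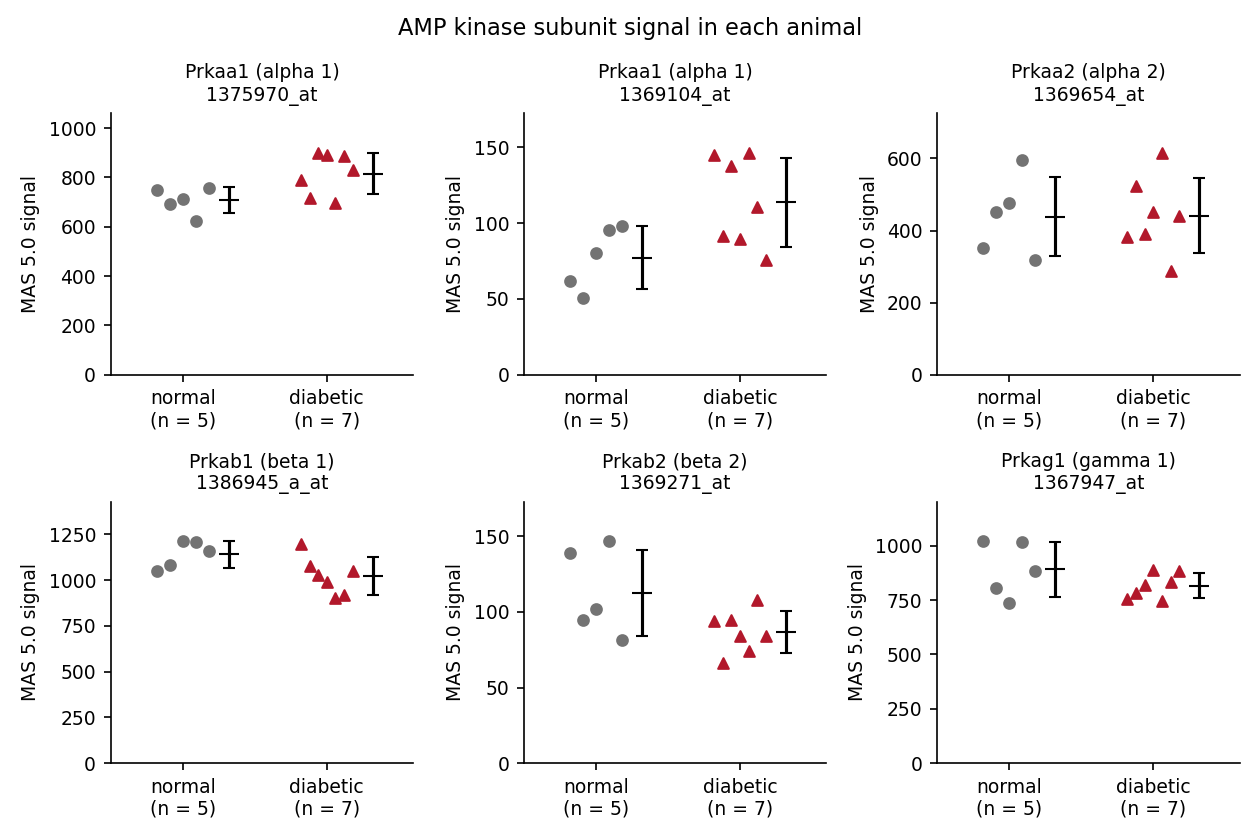
MAS 5.0 signal of each AMP kinase subunit probe set (vertical axes, linear, from 0) in each of the 5 normal (grey circles) and 7 diabetic animals (red triangles), in the order of the animals' numbers. Bars give the mean and SD of each group; in all 6 panels the groups overlap.

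The brighter probe set of Prkaa1 (1375970_at, designed on an expressed sequence tag) had signals of 749.3, 693.2, 713.8, 624.0 and 757.7 in normal animals 1 to 5. In diabetic animals 1 to 7 it had signals of 788.1, 717.1, 899.0, 888.6, 696.0, 886.9 and 828.2. Thus 5 of 7 diabetic animals lay above the highest normal animal, while diabetic 2 and 5 lay within the normal range. The mean was 708 ± 53.6 (SD, n = 5) in normal and 815 ± 84.0 (SD, n = 7) in diabetic lung, a ratio of 1.15. The log2 difference was 0.20 (SE 0.09, 95% interval 0.02 to 0.38), with an unadjusted p of 0.0352 and an adjusted p of 0.267 in limma. A two-sided exact permutation of the group labels (792 splits) gave p = 0.0366 with no adjustment for the number of probe sets. Of the 9520 probe sets, 7.75% were higher and 8.68% lower in diabetic lung by that unadjusted threshold of 0.05, so such a p was not rare on these arrays.

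The dimmer probe set of Prkaa1 (1369104_at, designed on the reference mRNA) had signals of 61.7, 50.5, 80.5, 95.2 and 98.4 in normal animals 1 to 5. In diabetic animals 1 to 7 it had 145.1, 91.7, 137.9, 89.5, 146.4, 110.5 and 75.8. Here 4 of 7 diabetic animals (1, 3, 5 and 6) lay above the highest normal animal, and diabetic 2, 4 and 7 lay within the normal range. The mean was 77.3 ± 20.8 (SD, n = 5) and 114 ± 29.3 (SD, n = 7), a ratio of 1.47. The log2 difference of 0.56 (SE 0.23, 95% interval 0.07 to 1.06) had an unadjusted p of 0.0283 and an adjusted p of 0.333 in limma over all probe sets (exact permutation test, two-sided, unadjusted p = 0.0391). With no cut on brightness, 5.96% of probe sets were higher and 6.71% lower by an unadjusted p under 0.05. Adding 50 to every signal before the logarithm, which damps dim probe sets, brought the difference to 0.36. The study named Prkaa1 as higher in diabetic lung on these same animals by another method, so its direction here is not independent evidence.

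The mean differences of the Prkaa1 probe sets had the same sign, but the probe sets did not track each other from animal to animal. On each array the dimmer probe set had 7.29% to 15.3% of the signal of the brighter in normal and 9.15% to 21.0% in diabetic lung. The log2 ratio of the dimmer to the brighter was -3.24 ± 0.446 (SD, n = 5) in normal and -2.88 ± 0.439 (SD, n = 7) in diabetic lung. The difference of the ratios, 0.36 (SE 0.26), did not pass the same exact permutation test (p = 0.194), which does not show that the probe sets changed alike. Once each animal's log2 signal was taken as a deviation from its group mean, Pearson's r of the pair over the 12 arrays was -0.18 and Spearman's rho -0.29. Within normal animals r was -0.15 and within diabetic animals -0.19. Without removing the group means r was 0.27 and rho 0.22, and r was 0.19 without the 2 arrays farthest from the median of the brighter probe set (normal 4 and diabetic 3). These correlations are descriptions of 12 arrays that share 1 scaling and carry no p. Diabetic 5 had the lowest value of its group on the brighter and the highest on the dimmer probe set. No other subunit has a second probe set, so that no like check could be run for them.

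**Figure D2:**
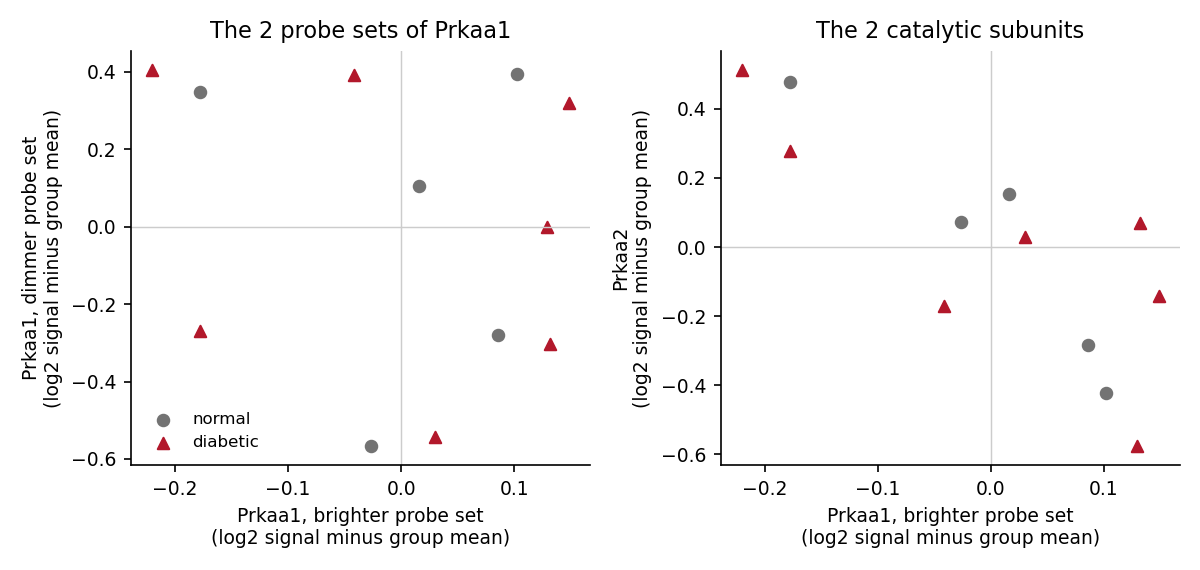
Deviation of each animal's log2 signal from its group mean, for the 2 probe sets of Prkaa1 (left) and for Prkaa2 against the brighter probe set of Prkaa1 (right), in 5 normal (grey circles) and 7 diabetic animals (red triangles). The left panel shows no common order (r = -0.18), and the right panel runs from upper left to lower right (r = -0.81).

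Prkaa2 (1369654_at), which encodes the catalytic subunit prominent in skeletal and cardiac muscle, had signals of 351.6, 450.3, 476.0, 596.5 and 319.3 in normal animals 1 to 5. In diabetic animals 1 to 7 it had 382.6, 522.4, 390.6, 452.5, 615.5, 288.7 and 440.0. The highest and the lowest of all 12 animals were diabetic 5 and diabetic 6, and the groups overlapped over almost their whole range. The mean was 439 ± 110 (SD, n = 5) in normal and 442 ± 105 (SD, n = 7) in diabetic lung. The log2 difference was 0.01 (SE 0.18, 95% interval -0.37 to 0.39, adjusted p = 0.984 in limma), and its sign changed when single animals were left out. Prkaa2 also had a wide spread for its brightness. The SD of its log2 signal within groups, 0.35, was at the 92.0 percentile of the 501 probe sets of nearest mean signal. The 13 striated muscle markers on the array had summed signals of 740 to 1542 in normal and 683 to 1066 in diabetic lung, and 12 of them were dim.

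Among the pairs of subunit probe sets, the closest opposition was between Prkaa2 and the brighter probe set of Prkaa1. The deviations of these probe sets from their group means had r = -0.81 and rho = -0.71 over the 12 arrays. The dimmer Prkaa1 probe set did not share this opposition, with r = 0.03 and rho = 0.07 against Prkaa2. Normal 4 and diabetic 5, highest for Prkaa2 in their groups, were lowest on the brighter Prkaa1 probe set. On the dimmer Prkaa1 probe set diabetic 5 was the highest of its group. Normal 5, lowest of the normal animals for Prkaa2, was the highest of them on the brighter Prkaa1 probe set. Diabetic 6, with the lowest Prkaa2 of all, had 886.9 on the brighter Prkaa1 probe set, close to the highest of its group. Normal 5 and diabetic 6 also had the highest beta-actin 3' to 5' ratios of their groups, 2.75 and 2.85. That ratio is a measure of RNA integrity given below, and its part in the opposition was not tested. With the group means left in, Prkaa2 and the brighter Prkaa1 probe set had r = -0.63 and rho = -0.59. That r was -0.53 without the 2 arrays farthest from the median of the brighter Prkaa1 probe set. In all 15 pairs of the 6 probe sets were set against each other in this way, with no p, so the strongest of them was singled out after its value was seen. Next was the pair of Prkab2 and Prkag1, whose deviations had r = 0.56 and rho = 0.63. Its r over the arrays was 0.64 and fell to -0.04 without the 2 arrays farthest from the median, so it rests on them. The ratio of 2 subunits overlapped between the groups in each of the 15 pairs.

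Prkab1, the gene of a scaffold subunit that carries a glycogen-binding domain, had signals of 1048.9, 1082.8, 1211.9, 1207.5 and 1161.3 in normal animals 1 to 5. In diabetic animals 1 to 7 it had 1200.5, 1079.3, 1029.6, 992.2, 900.0, 916.8 and 1050.1. Diabetic 3, 4, 5 and 6 lay below the lowest normal animal, and diabetic 1 lay near the top of the normal range. The mean was 1142 ± 73.7 (SD, n = 5) and 1024 ± 102 (SD, n = 7). The log2 difference of -0.16 (SE 0.08, 95% interval -0.33 to 0.01) had an adjusted p of 0.333 in limma and an unadjusted p of 0.0505 in the exact permutation test. The probe set (1386945_a_at) is of a type that can match more than 1 transcript of its gene.

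Prkab2 (1369271_at), the gene of the second scaffold subunit, had signals of 138.8, 94.8, 102.1, 146.6 and 81.6 in normal animals 1 to 5. In diabetic animals 1 to 7 it had 94.2, 66.2, 94.6, 84.1, 74.1, 108.0 and 84.1. Only diabetic 2 and 5 lay below the lowest normal animal, and normal 1 and 4 lay above every diabetic animal. The mean was 113 ± 28.4 (SD, n = 5) and 86.5 ± 13.9 (SD, n = 7). The log2 difference was -0.36 (SE 0.19, 95% interval -0.77 to 0.05), with an adjusted p of 0.454 in limma over all probe sets and an unadjusted p of 0.0720 in the exact permutation test.

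Prkag1 (1367947_at), the gene of a nucleotide-binding gamma subunit, had signals of 1020.0, 804.6, 735.8, 1018.3 and 883.0 in normal animals 1 to 5. In diabetic animals 1 to 7 it had 753.2, 782.3, 818.5, 889.4, 747.1, 834.1 and 882.7. All 7 diabetic animals lay inside the normal range. The mean was 892 ± 127 (SD, n = 5) and 815 ± 57.7 (SD, n = 7), a log2 difference of -0.12 (SE 0.09, 95% interval -0.32 to 0.07, adjusted p = 0.541 in limma). The difference was -0.07 without normal 1 or without normal 4, -0.19 without normal 3 and -0.04 with array weights. Of the other gamma genes, Prkag2 was dim, at 155 ± 62.9 (SD, n = 5) and 178 ± 53.4 (SD, n = 7), with a log2 difference of 0.23 (SE 0.25, adjusted p = 0.753 in limma over all probe sets). No probe set named Prkag3 alone, so it could not be read.

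The 6 member probe sets thus had 3 differences above and 3 below 0, and 2 of those above 0 were of Prkaa1. Their median was -0.06 on the log2 scale, beside a median of -0.02 over all 15866 probe sets. The groups overlapped for every member, while they did not overlap for 1.38% of all probe sets. In whole lung, fewer cells of a type and less RNA per cell cannot be told apart, for these genes as for the markers. No cell type marker tested passed an adjusted p of 0.05 in limma. By an unadjusted p under 0.05, which 7.49% of all genes met as higher and 9.11% as lower, 5 of 8 fibroblast markers were lower and 1 was higher. Their summed signal was 17809 to 19645 in normal and 10423 to 15856 in diabetic lung, with no overlap. By the same threshold, 2 of 4 macrophage markers were higher and 0 lower, 2 of 5 alveolar type I markers were lower and 1 higher, and 2 of 7 lymphocyte markers were lower and 0 higher. Among the other lists, 1 of 7 alveolar type II markers was higher. Lower were 1 of 5 airway epithelium markers, 1 of 3 erythroid markers and the 1 striated muscle marker above the cut on brightness. The remaining lists had no such marker. The summed signals of the macrophage, alveolar type I and lymphocyte lists overlapped between the groups. The study named the markers Col1a1, Col3a1 and Cd79b as lower and Cd14 as higher on these same animals. The counts and sums of the fibroblast, macrophage and lymphocyte lists are therefore not independent evidence. The part of any of these cell types in the values of the subunits was not tested.

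A measure of RNA integrity also moved with the groups. For GAPDH, the 3' control probe set over the 5' one gave 1.32 ± 0.0778 (SD, n = 5) in normal animals against 1.15 ± 0.0710 (SD, n = 7) in diabetic animals, with p = 0.00505 by exact permutation. For beta-actin the values were 2.06 ± 0.437 and 2.08 ± 0.372 (p = 0.920 by exact permutation). Within groups the deviations of Prkab2 followed those of the GAPDH ratio with r = 0.67 and those of Prkag1 with r = 0.48. For the brighter and dimmer Prkaa1 probe sets that r was 0.07 and 0.14, for Prkaa2 -0.23 and for Prkab1 -0.32. With the beta-actin ratio the brighter and dimmer Prkaa1 probe sets had r of 0.39 and 0.26, and Prkaa2 had -0.44. Prkab1, Prkab2 and Prkag1 had -0.12, -0.01 and 0.16 with it. With the GAPDH ratio as a covariate, a model added after seeing the data, the Prkaa1 differences were 0.22 (SE 0.14) and 0.69 (SE 0.38) on the log2 scale and that of Prkab1 was -0.26 (SE 0.13). Those of Prkab2 and Prkag1 changed sign, to 0.10 (SE 0.28) and 0.053 (SE 0.14), and that of Prkaa2 became -0.19 (SE 0.29). None of these passed an adjusted p of 0.05 in limma.

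**Figure D3:**
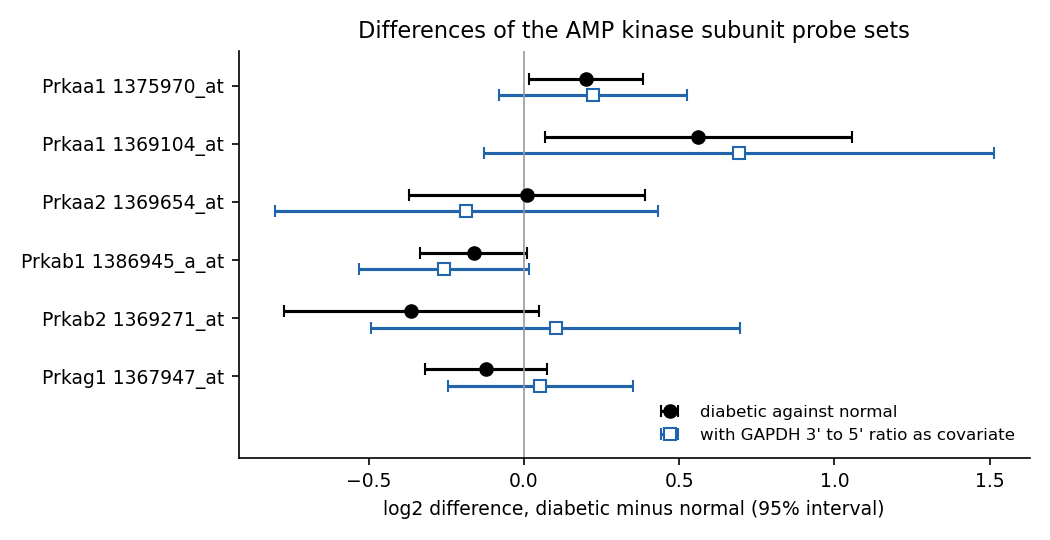
Log2 difference, diabetic minus normal, of each AMP kinase subunit probe set with its 95% interval, in the model of the groups alone (black circles) and with the GAPDH 3' to 5' ratio as a covariate (blue open squares). With the covariate each interval is wider and includes 0, and the point estimates of Prkaa2, Prkab2 and Prkag1 lie on the other side of 0.

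The genes whose deviations from the group means were most like those of each subunit were taken from the 7036 genes above the cut on brightness. For the brighter Prkaa1 probe set they were Pex19, a peroxisome import factor (r = 0.93 over 12 arrays), Gypc, a red cell membrane glycoprotein (0.88), Rpap2, an RNA polymerase II phosphatase (0.86), Odf2, a centriole protein (0.85), and Trappc11, a vesicle tethering factor (0.81). For Prkaa2 they were the zinc finger gene Zfhx4 (0.90), the red cell anion exchanger Slc4a1 (0.89) and the gap junction gene Gja1 (0.88). For Prkab1 they were the corepressor Sin3b (0.89), the endosomal WASH complex subunit Washc5 (0.88) and the signal peptide peptidase Hm13 (0.88). For Prkab2 they were Bcl7b, a chromatin remodelling subunit (0.93), Lztfl1, a ciliary transport regulator (0.88), and Grwd1, a ribosome assembly factor (0.87). For Prkag1 they were the histone methyltransferase Kmt2d (0.89), the transcription factor Tcf7l1 (0.89) and the mitotic gene Dlgap5 (0.88). The highest r of deviations between subunits was 0.56, for Prkab2 and Prkag1, so no subunit was among the nearest genes of another. Prkab2, below the cut, could not be found as a neighbour, and the search ranked the highest r only, not opposed patterns. The r values of the nearest genes were the highest found among so many. How high such a search reaches for other probe sets was not tested.

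The lists around AMPK held 127 genes: upstream and downstream genes, gamma subunits outside the members, and kinases related to AMPK. Of these, 104 were on the array with a probe set of their own. Above the cut on brightness were 85, each read from its brightest probe set. In limma 0 of the 85 passed an adjusted p of 0.05, while 13 lay higher and 5 lower by an unadjusted p under 0.05. These are 15.3% and 5.88% of the genes, beside 7.49% and 9.11% of all 7036 genes. The median log2 difference was 0.05, beside -0.01 over all genes.

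**Figure D4:**
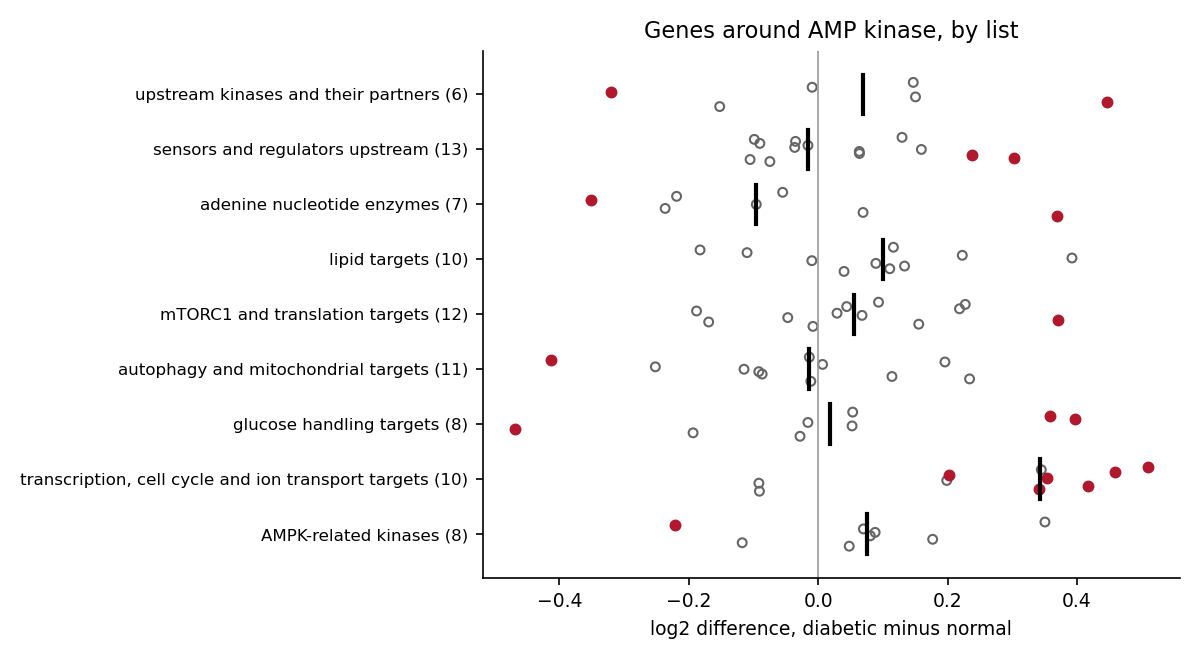
Log2 difference, diabetic minus normal, of each gene of the lists around AMP kinase that was above the cut on brightness (number in parentheses), from the brightest probe set of each gene. Filled red points had an unadjusted p under 0.05 in limma and open points did not, black bars are list medians, and no gene passed an adjusted p of 0.05.

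Of 6 genes tested for upstream kinases and their partners, 1 was higher and 1 lower by an unadjusted p under 0.05. Stradb, a pseudokinase partner of LKB1, had a signal of 178 ± 32.3 (SD, n = 5) in normal and 241 ± 30.9 (SD, n = 7) in diabetic lung (adjusted p = 0.131 in limma). Camkk1, a calcium-dependent kinase kinase, had 471 ± 112 and 370 ± 25.0 (adjusted p = 0.202). Tab1, a partner of the kinase TAK1, had a log2 difference of 0.15 (adjusted p = 0.385). Stk11 and Camkk2, the genes of the upstream kinases LKB1 and CaMKK2 named above, were dim, and Stk11 had 61.8 ± 20.8 and 58.9 ± 19.7.

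Of 13 sensors and regulators, 2 were higher and 0 lower by limma's unadjusted p under 0.05. These were Flcn, a lysosomal tumour suppressor, at 831 ± 170 (SD, n = 5) and 1007 ± 87.1 (SD, n = 7), and its partner Fnip1, which binds AMPK, at 539 ± 51.5 and 637 ± 71.8 (adjusted p of 0.240 and 0.222). The third gene by p, the ubiquitin adaptor Ubqln1, had log2 differences of 0.13 and 0.11 on its probe sets. Of 7 enzymes of adenine nucleotides, 1 was higher and 1 lower by the same threshold. Adk, which makes AMP from adenosine, was the lower one at 2921 ± 417 and 2285 ± 282 (adjusted p = 0.134). Its other probe set had a log2 difference of -0.18 (unadjusted p = 0.0695 in limma). Ak3, a mitochondrial adenylate kinase, was the higher one at 912 ± 215 and 1158 ± 190, and Nme1, a nucleoside diphosphate kinase, had a log2 difference of -0.22.

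Of 10 lipid targets, 0 had an unadjusted p under 0.05 in limma. The smallest p was that of Pnpla2, the triglyceride lipase ATGL, with a signal of 862 ± 108 (SD, n = 5) and 1183 ± 441 (SD, n = 7). Cpt1a, which takes fatty acids into mitochondria, had log2 differences of 0.22 on both of its probe sets (unadjusted p of 0.110 on the brighter and 0.0405 on the other in limma), and Mlycd, which degrades malonyl-CoA, had 0.11. Of 12 targets in the mTORC1 and translation list, 1 was higher by an unadjusted p under 0.05. This was Tsc1, a brake on mTORC1, at 378 ± 50.5 and 487 ± 43.2 (log2 difference 0.37, SE 0.10, adjusted p = 0.0926), while its dim second probe set had -0.19 (SE 0.26). The elongation factor 2 kinase Eef2k and the mTORC1 subunit Rptor had log2 differences of 0.22 and 0.16 (adjusted p of 0.315 and 0.324).

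Of 11 targets in autophagy and mitochondria, 1 was lower at an unadjusted p under 0.05 in limma. This was Esrra, a nuclear receptor of mitochondrial genes, at 208 ± 39.8 (SD, n = 5) and 157 ± 30.8 (SD, n = 7) (adjusted p = 0.209). The fission gene Dnm1l had a log2 difference of -0.25 and the mitochondrial transcription factor Tfam 0.20. Of 8 targets in glucose handling, 2 were higher and 1 lower by the same threshold. Txnip, which limits glucose uptake, had 11483 ± 1419 and 14703 ± 1625 (adjusted p = 0.0903), Pfkfb3, a glycolytic regulator, had 388 ± 44.1 and 527 ± 163 (adjusted p = 0.260), and the muscle-type glycogen synthase Gys1 had 442 ± 46.2 and 324 ± 67.9 (adjusted p = 0.124). The dim second probe set of Pfkfb3 had a log2 difference of -0.17.

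The list of targets in transcription, the cell cycle and ion transport had the most genes with an unadjusted p under 0.05 in limma, 6 higher and 0 lower of 10, with a median log2 difference of 0.34. Over all 7036 genes 7.49% were higher and 9.11% lower by that threshold, with a median of -0.01. The list was singled out from the lists after its count was seen. Creb1, a cyclic AMP response factor, had 519 ± 41.1 (SD, n = 5) in normal and 674 ± 141 (SD, n = 7) in diabetic lung. Nedd4l, the ubiquitin ligase that removes the epithelial sodium channel from the membrane, had 478 ± 104 and 689 ± 178. Cdkn1b, the cell cycle inhibitor p27, had 2834 ± 649 and 3756 ± 881. Their adjusted p were 0.189, 0.189 and 0.222. The other three, named after their values were seen, were the transcription factor Foxo3 (log2 difference 0.34), the acetyltransferase Ep300 (0.20) and Atp1b1, a subunit of the sodium pump (0.46). Of 2 dim further probe sets of Creb1, 1 had -0.18 and 1 had 0.79 (SE 0.56), and that of Cdkn1b had 0.33. Of 8 kinases related to AMPK, only Snrk had an unadjusted p under 0.05, at 313 ± 28.6 and 269 ± 30.4 (adjusted p = 0.295), and Hunk and Sik3 had log2 differences of 0.35 and 0.18.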

How the data were processed

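RNA of whole lung from 12 rats was hybridized to 1 array each. The deposited values are MAS 5.0 signals, an intensity on a linear scale that the authors scaled to a trimmed mean of about 500.1 on every array (lowest and highest 2% left out). Median signals were 252.7 to 272.0, and pairs of arrays had a Pearson's r of 0.937 to 0.967 on the log2 scale. Values were taken to log2, with 1 value at or below 0 set to 0.1, and 57 control probe sets were left out. Of 15866 probe sets, 12783 named 1 gene, 12748 of them through Entrez IDs, 2 through accessions and 33 through the annotation's symbol, while 312 named several genes and 2771 none.

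Normal and diabetic lung were compared by limma 3.58.1 under R 4.3.3 (linear model with an intensity trend in eBayes), two-sided with Benjamini-Hochberg adjustment, over the 9520 probe sets left after removal of the 40% with the lowest mean log2 signal, and again over all probe sets for members below that cut. The code was tested on simulated data. Plots came from matplotlib 3.10.9 under python 3.11.15. The members and gene lists were chosen with earlier results of these data known. The text names every member probe set, the genes with the smallest p of each list (at most 3) and the 3 to 5 genes most alike in pattern. The study's methods used BAMarray and present and absent calls, which were not used here, and the background of the arrays was not used, so dim probe sets carry no detection call. The numbers of the animals do not pair them: each is a separate rat, and same-numbered animals had correlations of deviations between -0.12 and 0.04. Alternatives covered leaving out each animal, array weights, scaling, the filter, a pseudocount of 50, a replicate block, the variance model, linear means and the test. RNA integrity covariates were added after seeing the data. The number of arrays limits the precision. RT-PCR and heart arrays were not analysed here.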

Additional observations from a re-analysis of the deposited data

How the results depend on the processing

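No AMP kinase subunit probe set passed an adjusted p of 0.05 from limma under any alternative run, with the lowest at 0.181 for the brighter Prkaa1 probe set. Prkaa1 kept its direction in every alternative, at 0.16 to 0.24 on the log2 scale on the brighter and 0.36 to 0.69 on the dimmer probe set, and Prkab1 did too, at -0.26 to -0.13. In the exact permutation test, which is not adjusted, the Prkaa1 differences of 0.20 and 0.56 had p of 0.0366 and 0.0391. The sign of Prkaa2 depended on single animals, with a range of -0.10 to 0.13 when each was left out. It was below 0 without normal 1 or 5 or diabetic 2, 4 or 5, and -0.19 with the GAPDH ratio as a covariate. Prkab2 was -0.47 to -0.26 and Prkag1 -0.19 to -0.07 when each animal was left out, and Prkag1 was -0.04 with array weights. With the GAPDH covariate Prkab2 was 0.10 and Prkag1 0.053, and in every other alternative run both were below 0. Why the sign changed was not tested. The difference of the Prkaa1 log2 ratios was 0.17 to 0.49, with exact permutation p of 0.103 to 0.412.

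The count of all probe sets past the threshold, 16, was 25 after quantile normalization, 9 without the intensity trend, 80 with array weights, 32 with a stricter filter, 7 with no filter, 288 with the GAPDH covariate and 27 with the beta-actin covariate. It ranged from 2 to 30 when each animal was left out. It was 9, 2, 2 and 8 without normal 1, 2, 4 and 5, and 8, 6, 6, 5, 27 and 30 without diabetic 1 to 6. With the replicate block it was 10, and the block changed no call among the subunits. The cause of these shifts was not tested. In a comparison of 5 with 7 arrays the 95% intervals of the subunits together span log2 differences from -0.77 to 1.06.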
